A study of Mus musculus with 12 samples.

Results

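Prostanoids are short-range lipid signals made from arachidonic acid. A phospholipase A2 frees the fatty acid from membrane phospholipid, a cyclooxygenase (COX-1 or COX-2) converts it to PGH2, and terminal synthases turn PGH2 into PGE2, prostacyclin (PGI2), thromboxane A2, PGD2 or PGF2α. Each product acts on its own G-protein-coupled receptors. In the glomerulus, the capillary filter of the kidney, prostacyclin and PGE2 relax and thromboxane A2 contracts the mesangial cells and arterioles that set filtration.

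This account covers 10 genes of that pathway among the 26264 gene symbols counted. They are the secreted phospholipase Pla2g5, the cyclooxygenase genes Ptgs1 (COX-1) and Ptgs2 (COX-2), the prostacyclin synthase Ptgis, the prostacyclin receptor Ptgir, the PGE2 receptors Ptger1, Ptger2, Ptger3 and Ptger4, and the thromboxane receptor Tbxa2r. All 10 were found by symbol and all 10 passed the filter on low counts. They were chosen by their role in the pathway with their fold changes between the 4 groups of these data already in view, so the adjusted p-values given for its members describe them and carry no independent support.

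Poly(A) RNA of glomeruli pulled out of the kidney with magnetic beads was sequenced from male mice, 8 weeks old, of the BALB/cAjcl substrain, here Ajcl, and the BALB/cByJcl substrain, here ByJcl, both derived from inbred BALB/c. Each substrain was sampled untreated, here called baseline, and at Day 5 after 1 intravenous dose of 10 mg/kg adriamycin (ADR, doxorubicin), an anthracycline that injures podocytes, the filter's epithelial cells. Each of the 4 groups had 3 libraries of 42198416 to 54687045 counts. The Ajcl Day 5 ADR group enters the fit reported here with 2 libraries, because replicate 1 was set aside in the study for reduced glomerular purity, and its values are given apart. The labels and the study give the baseline mice of these libraries as untreated, though the study's methods also state that control mice received saline. The baseline and Day 5 counts stand in separate tables. With untreated baseline mice, ADR, the injection and the making of the tables cannot be told apart.

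Levels are counts relative to library size (CPM, scaled with edgeR's TMM factors), given as mean ± SD between libraries. Differences are log2 fold changes with their standard error (SE) from edgeR's quasi-likelihood fit of 17002 genes, with Benjamini-Hochberg adjustment over all of them, and a gene is called below 0.05. The labels do not tie the libraries of a group to separate cultures or litters, so p-values measure the spread between these libraries.

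Marker RNA of the preparation changed with ADR in ByJcl. There all 8 podocyte markers were called lower at Day 5 and 4 of 7 immediate early genes, which respond within minutes to stress, were called higher. Also in ByJcl, 2 of 6 glomerular endothelial markers were called lower and 1 each of 5 mesangial, 5 smooth muscle and 5 macrophage markers higher, where 10.6% of all tested genes were called and 5.75% were called higher. No marker of any list was called with ADR in Ajcl, where 0.312% of all tested genes were called. The median log2 fold change of the podocyte markers with ADR was −0.398 in Ajcl and −1.203 in ByJcl. Between the substrains the 1 call was a smooth muscle marker at Day 5. There 0.165% of all tested genes were called, and 0.159% at baseline. Markers of tubule segments, macula densa, juxtaglomerular cells, platelets and fibroblasts had no call in any comparison. In bulk RNA, fewer cells of a type and less RNA per cell cannot be told apart. Macrophage markers summed to 19.6 to 31.4 CPM and platelet markers to 5.93 to 11.1 CPM over the 11 libraries, and the renin gene Ren1 stayed at or below 0.25 CPM.

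Ptgir and Pla2g5 are the members that differed most clearly between the substrains, and the sequences just before their start sites are shown for that reason. Windows of 250 bases are taken from the RefSeq table of GRCm38.p6, in which 8 of the 10 members have an entry. Each was matched without mismatch to GRCm39, the build to which the reads were aligned. Both builds are of the C57BL/6J mouse, and the sequence of either BALB/c substrain was not analysed here. Ptgir lies on chromosome 7 from 16640415 to 16644848 on the plus strand, and Pla2g5 on chromosome 4 from 138526553 to 138590916 on the minus strand. The windows are at chr7:16640165-16640414 (plus) for Ptgir, and at chr4:138590781-138591030 and chr4:138546569-138546818 (both minus) for the first and second start of Pla2g5. Starts are those of the RefSeq table, while the gene extents are from GENCODE. Part of the first Pla2g5 window and all of the second lie inside the extent given for Pla2g5. Capitals mark matches to CCAAT or GGGCGG.
Ptgir: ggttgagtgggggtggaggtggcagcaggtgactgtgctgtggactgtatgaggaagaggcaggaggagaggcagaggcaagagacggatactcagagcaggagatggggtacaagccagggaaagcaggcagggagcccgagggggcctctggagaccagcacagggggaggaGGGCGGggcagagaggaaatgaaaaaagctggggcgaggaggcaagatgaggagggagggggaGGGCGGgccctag
Pla2g5, first start: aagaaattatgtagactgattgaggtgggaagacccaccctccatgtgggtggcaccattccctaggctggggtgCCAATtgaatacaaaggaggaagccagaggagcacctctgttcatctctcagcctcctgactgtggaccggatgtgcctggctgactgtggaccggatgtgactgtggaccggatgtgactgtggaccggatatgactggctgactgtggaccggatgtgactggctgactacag
Pla2g5, second start: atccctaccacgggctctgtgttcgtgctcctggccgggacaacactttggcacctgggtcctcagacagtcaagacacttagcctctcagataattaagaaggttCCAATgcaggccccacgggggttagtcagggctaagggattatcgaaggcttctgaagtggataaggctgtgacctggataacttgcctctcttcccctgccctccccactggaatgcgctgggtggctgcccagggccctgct

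Both strands of each window were searched for the TATA box TATAAA, the CCAAT box, the GC box core GGGCGG, the cyclic AMP response element TGACGTCA, the AP-1 site TGANTCA and the E-box CACGTG. The window of Ptgir, with a GC content of 63.6%, held 2 copies of GGGCGG at 76 and 13 bases before the start. GGGCGG occurred in 32.7% of 32851 windows of the same length. Each window of Pla2g5 held 1 CCAAT, at 175 bases before the first start and 144 before the second, and 33.8% of all windows held it. The first Pla2g5 window also carries 5 copies of the 15-base unit tgactgtggaccgga, in the part that lies inside the gene extent. That unit was taken from this window and searched on the strand shown. Its presence in 1 of the 32851 windows, this one, therefore does not show how unusual it is. These matches describe the reference letters and do not show what binds them.

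Pla2g5 was higher in ByJcl than in Ajcl before and after ADR. The enzyme is a secreted phospholipase A2 that acts at the head of the pathway. At baseline Pla2g5 was at 3.97, 2.73 and 4.89 CPM in the Ajcl libraries and at 11.4, 10.0 and 9.56 CPM in the ByJcl libraries. At Day 5 it was at 2.60 and 2.21 CPM in Ajcl and at 11.2, 9.47 and 10.6 CPM in ByJcl. The lowest ByJcl library of Pla2g5 stood above the highest Ajcl library at both times, the set-aside library included, which was at 4.55 CPM. Libraries separated in that direction for 9.19% of all tested genes at baseline and for 16.9% at Day 5, over the libraries of the fit. The level of Pla2g5 differed by 1.42 ± 0.21 on the log2 scale at baseline (2.67-fold, edgeR adjusted p = 0.028) and by 2.12 ± 0.25 at Day 5 (4.33-fold, edgeR adjusted p = 0.00831).

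The direction of the Pla2g5 difference held in every alternative fit, but its calls did not. The baseline call was lost when all 12 libraries were fitted (edgeR adjusted p = 0.172), when only the baseline groups were fitted (0.172), with the replicate number as a block (0.0538), and on leaving out Ajcl baseline replicate 1, either Ajcl Day 5 library, or any ByJcl library, each in turn (0.0542 to 0.24). The Day 5 call was lost without Ajcl Day 5 ADR replicate 2 (0.143, and 0.169 with replicate 1 kept in its place) and with only the Day 5 groups (0.0725). DESeq2 gave 2.56e-07 at baseline and 2.2e-13 at Day 5. ADR left Pla2g5 of ByJcl at 10.4 ± 0.871 CPM against 10.3 ± 0.952 CPM at baseline (log2 fold change 0.01 ± 0.20, n = 3 and 3). In Ajcl it stood at 2.41 ± 0.276 CPM (n = 2) against 3.86 ± 1.08 CPM (n = 3), a difference of −0.68 ± 0.24 that was not called (edgeR adjusted p = 0.339).

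Pla2g5 has a neighbour with a larger difference in the opposite direction. Otud3, a deubiquitinase gene, was singled out after its values were seen and lies 30036 bases away from Pla2g5, on the same strand. Otud3 was at 31.2 to 40.1 CPM in the Ajcl baseline libraries and at 1.34 to 1.93 CPM in the ByJcl ones, which is lower by −4.42 ± 0.27 on the log2 scale (edgeR adjusted p = 2.26e-05). At Day 5 the difference was −4.30 ± 0.28 (edgeR adjusted p = 6.48e-05). Of the 8 other tested genes within 250 kb of Pla2g5, Otud3 was the 1 called, at both times. Htr6 has a large fitted value in that window from counts near 0. Within 250 kb of Ptgir, 0 of 12 other genes were called at either time.

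**Figure D1:**
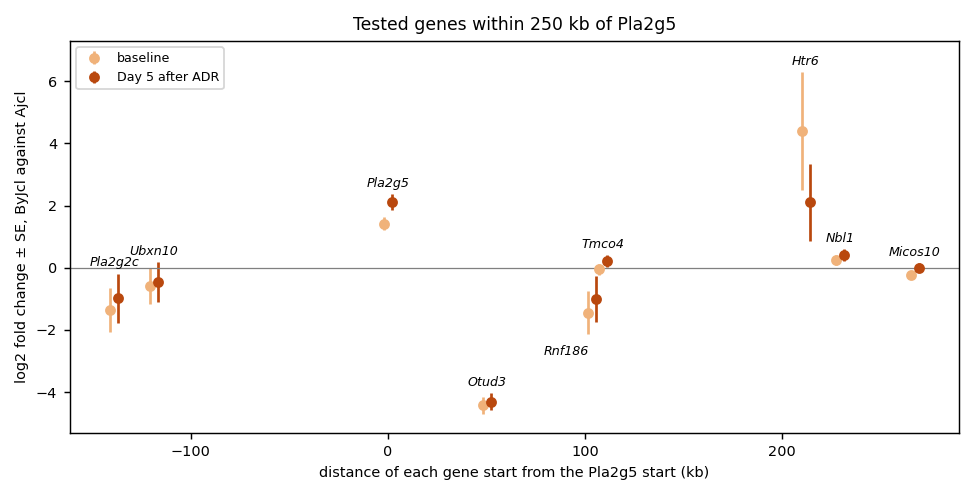
Log2 fold change ± SE of ByJcl against Ajcl (vertical axis) for Pla2g5 and the 8 other tested genes within 250 kb, at the distance of each gene's start from the Pla2g5 start in kb (horizontal axis), at baseline and at Day 5. Pla2g5 lies at 1.42 and 2.12 and Otud3 at −4.42 and −4.30, while Htr6 is near 0 CPM and has wide error bars.

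Ptgir rose with ADR in ByJcl and did not differ detectably in Ajcl. Its product is the Gs-coupled receptor of prostacyclin, which raises cyclic AMP and relaxes smooth muscle. Ptgir was at 7.07, 7.57 and 5.61 CPM in Ajcl at baseline and at 6.73 and 7.46 CPM at Day 5, and the set-aside library was at 6.93 CPM. In ByJcl it was at 9.80, 12.1 and 11.2 CPM at baseline and at 18.2, 19.7 and 18.4 CPM at Day 5. The Ptgir levels form 3 separate steps, with the 5 Ajcl libraries lowest, ByJcl baseline next and ByJcl Day 5 ADR highest, and no library of one step reaches the next. Day 5 and baseline libraries of ByJcl separated upwards for 17.3% of all tested genes. ByJcl libraries stood above those of Ajcl for 9.19% of all tested genes at baseline and for 16.9% at Day 5.

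The rise of Ptgir in ByJcl was 0.77 ± 0.15 on the log2 scale (1.71-fold, edgeR adjusted p = 0.0101), and this call held in each of the 21 alternative fits, with an adjusted p of at most 0.0454. In Ajcl the change was 0.07 ± 0.17 (edgeR adjusted p = 0.929). The test of the difference between the substrains' changes in Ptgir gave 0.70 ± 0.23 with an edgeR adjusted p of 0.62, so that the ADR response is not shown to differ between substrains. At Day 5 ByJcl exceeded Ajcl in Ptgir by 1.40 ± 0.18 (2.65-fold, edgeR adjusted p = 0.0105), a call lost without Ajcl Day 5 ADR replicate 2 (0.223) and with only the Day 5 groups (0.1). At baseline the Ptgir difference was 0.71 ± 0.15 (1.63-fold), which edgeR did not call (adjusted p = 0.202) and DESeq2 did (0.00484).

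Smooth muscle and mesangial cells carry prostacyclin receptors, and markers of both were set beside Ptgir. The 5 smooth muscle markers together summed to 511 to 554 CPM in Ajcl Day 5 ADR and to 699 to 845 CPM in ByJcl Day 5 ADR, against 563 to 590 CPM in ByJcl at baseline. Of these, Tagln, an actin-binding protein gene, was called higher with ADR in ByJcl (1.31 ± 0.16, edgeR adjusted p = 0.00163) and in ByJcl against Ajcl at Day 5. The other 4, among them the contractile genes Acta2 and Myh11, were not called. Of the 5 mesangial markers Serpine2 was called higher with ADR in ByJcl (0.87 ± 0.12, edgeR adjusted p = 0.00285) and the other 4 were not. Whether cell makeup has a part in the rise of Ptgir was not tested.

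**Figure D2:**
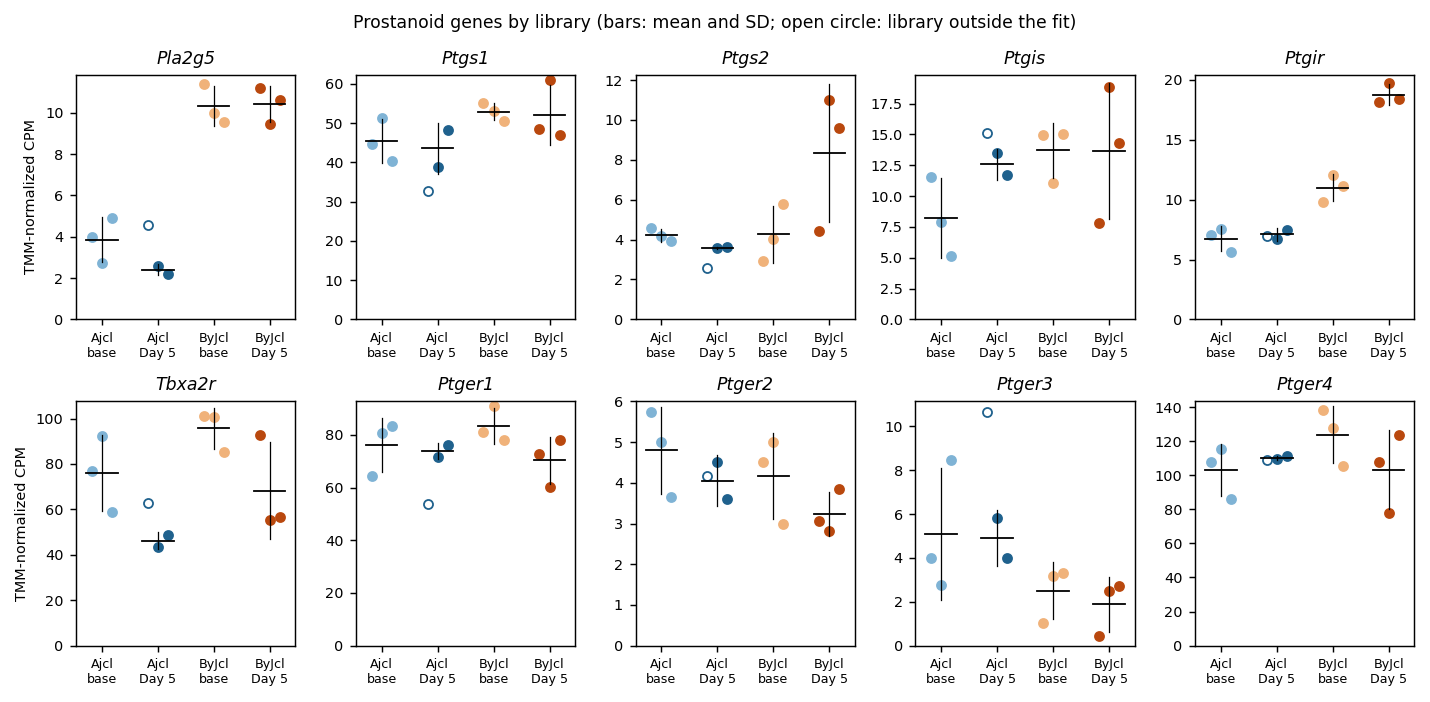
TMM-normalized CPM (vertical axes, each starting at 0) of the 10 members in every library of the 4 groups, with lines at the mean and the SD of the libraries in the fit and an open circle for Ajcl Day 5 ADR replicate 1, which is outside it. Pla2g5 separates by substrain, at 2.21 to 4.89 CPM in Ajcl and 9.47 to 11.4 CPM in ByJcl, and Ptgir stands apart in ByJcl Day 5 ADR at 18.2 to 19.7 CPM.

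The other 8 members are protein-coding genes spread over 7 chromosomes of GRCm39. The synthesis genes Ptgs1 (chr2:36120438-36142287) and Ptgis (chr2:167033725-167083018) share chromosome 2, and Ptgs2 lies at chr1:149975194-149983978. The PGE2 receptors lie at chr8:84393264-84399384 (Ptger1), chr14:45225652-45241277 (Ptger2), chr3:157272492-157352099 (Ptger3) and chr15:5236142-5273673 (Ptger4), and the thromboxane receptor gene Tbxa2r at chr10:81163948-81171025.

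Neither cyclooxygenase gene was called by edgeR in any comparison, and Ptgs1 was the more abundant and the more even. Ptgs1, the constitutive form, was at 45.4 ± 5.51 CPM in Ajcl baseline (n = 3), 43.6 ± 6.62 in Ajcl Day 5 ADR (n = 2), 52.9 ± 2.21 in ByJcl baseline and 52.2 ± 7.64 in ByJcl Day 5 ADR (n = 3 each). None of the 4 pairwise differences of Ptgs1 exceeded 0.26 on the log2 scale, and none was called. Ptgs2, the form induced by stress and cytokines, was at 4.57, 4.16 and 3.92 CPM in Ajcl baseline and at 3.56 and 3.63 CPM in Ajcl Day 5 ADR. Ptgs2 was at 2.95, 4.02 and 5.80 CPM in ByJcl baseline and at 4.45, 11.01 and 9.62 CPM in ByJcl Day 5 ADR.

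Thus 2 of the 3 ByJcl Day 5 libraries had the highest Ptgs2 of all, and replicate 1 lay within the range of the untreated mice. The ADR difference of Ptgs2 in ByJcl was 0.97 ± 0.33 and was not called (edgeR adjusted p = 0.081). Without ByJcl Day 5 ADR replicate 1 it was 1.28 ± 0.25 and called (0.0138), and DESeq2 called it over the 11 libraries (0.0239). At Day 5 Ptgs2 was higher in each ByJcl library than in either Ajcl library, by 1.22 ± 0.38 on the log2 scale (2.32-fold), which edgeR did not call (adjusted p = 0.212) and DESeq2 did (0.0342). In that comparison 16.9% of all tested genes separated upwards. The 7 immediate early genes summed to 4560 and 4260 CPM in replicates 2 and 3 and to 4009 CPM in replicate 1, and to 4282 CPM in Ajcl Day 5 ADR replicate 3, where Ptgs2 was at 3.63 CPM. Among them Atf3 was at 62.2 and 44.3 CPM in replicates 2 and 3, at 34.8 CPM in replicate 1 and at 26.4 CPM in that Ajcl library. In the kidney Ptgs2 is known from the macula densa, a sensor patch of tubule cells at the glomerular pole. Its 2 markers, Nos1 and Slc12a1, summed to 157 and 72.5 CPM in replicates 2 and 3 and to 28.5 CPM in replicate 1, but to 95.5 to 232 CPM in the Ajcl libraries of the fit, where Ptgs2 was at 3.56 to 4.57 CPM, and to 307 CPM in the set-aside library, which had the lowest Ptgs2 of all at 2.57 CPM. Nearly all of that sum is Slc12a1, which the thick ascending limb shares. Nos1 alone had group means of 3.36 and 3.74 CPM in Ajcl and of 0.859 and 2.31 CPM in ByJcl, at baseline and Day 5 in turn. The part of stress or of macula densa cells in the Ptgs2 levels was not tested. Per kilobase of exon, Ptgs2 made up 6.62 ± 0.731% of cyclooxygenase RNA in Ajcl baseline, 5.95 ± 0.777% in Ajcl Day 5 ADR, 5.78 ± 2.07% in ByJcl baseline and 10.7 ± 3.66% in ByJcl Day 5 ADR.

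Ptgis, whose product makes prostacyclin from PGH2, varied between libraries more than between groups. Ptgis ranged from 5.13 to 11.6 CPM in Ajcl baseline, from 11.7 to 13.5 in Ajcl Day 5 ADR, from 11.1 to 15.1 in ByJcl baseline and from 7.83 to 18.8 in ByJcl Day 5 ADR. The widest difference of Ptgis, ByJcl against Ajcl at baseline, was 0.74 ± 0.33 and was not called (edgeR adjusted p = 0.593). The synthase of prostacyclin therefore showed no called change in ByJcl, where the receptor Ptgir rose.

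Tbxa2r encodes the thromboxane receptor, which couples to Gq and contracts mesangial and vascular smooth muscle. Tbxa2r was at 77.0, 92.4 and 58.7 CPM in Ajcl baseline and at 43.5 and 48.9 CPM in Ajcl Day 5 ADR. In ByJcl it was at 101, 100 and 85.3 CPM at baseline and at 92.7, 55.4 and 56.5 CPM at Day 5. Both Ajcl Day 5 libraries of Tbxa2r in the fit lay below the Ajcl baseline libraries, with the set-aside library at 63.0 CPM inside their range (11.5% of all tested genes separated downwards in Ajcl), and 2 of 3 ByJcl Day 5 libraries lay below those of ByJcl baseline. The Tbxa2r difference with ADR was −0.72 ± 0.24 in Ajcl (edgeR adjusted p = 0.306) and −0.49 ± 0.21 in ByJcl (edgeR adjusted p = 0.161), neither of them called. At Day 5 every ByJcl library of Tbxa2r lay above both Ajcl libraries of the fit, as 16.9% of all tested genes did, by 0.56 ± 0.24 (1.48-fold), which was not called (edgeR adjusted p = 0.326). Without ByJcl Day 5 ADR replicate 1 the ADR difference was −0.77 ± 0.16 in ByJcl and called (edgeR adjusted p = 0.0167).

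Of the PGE2 receptors, Ptger4 and Ptger1 were abundant and had no called difference between groups. Ptger4, Gs-coupled, had group means from 102.9 to 123.8 CPM, and Ptger1, Gq-coupled, from 70.3 to 83.5 CPM. The differences of Ptger4 ran from −0.26 to 0.27 and those of Ptger1 from −0.25 to 0.13 on the log2 scale, with none called. Every ByJcl Day 5 library of Ptger1 lay below those of ByJcl baseline, at 60.4 to 78.0 against 78.1 to 91.1 CPM. In that direction 16.1% of all tested genes separated. The level of Ptger1 is uncertain as that of a single gene, because the libraries were strand-specific but the strand setting of the counting is not given in the sources used here, and how much of the Ptger1 level, its rank or the receptor shares this touches is not reported. For the same reason Ptger4 and Ptgs2 carry a doubt. Ptger4 shares 15.3% of its exon bases with the processed pseudogene Gm15937 and 3.4% with Ttc33, and Ptgs2 shares 9.3% with Ptgs2os, all antisense. Ptger2, the other Gs-coupled PGE2 receptor, was low, at 2.80 to 5.74 CPM over the 11 libraries, and its differences, from −0.36 to −0.20, were not called.

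Ptger3, the Gi-coupled PGE2 receptor, is known in the kidney from the thick ascending limb and collecting duct rather than the glomerulus. Ptger3 was at 4.02, 2.77 and 8.47 CPM in Ajcl baseline and 5.83 and 4.01 CPM in Ajcl Day 5 ADR. In ByJcl it was at 1.04, 3.18 and 3.33 CPM at baseline and at 0.443, 2.51 and 2.72 CPM at Day 5. The fitted Ptger3 difference of ByJcl against Ajcl was −1.01 ± 0.63 at baseline (edgeR adjusted p = 0.65) and −1.38 ± 0.69 at Day 5 (edgeR adjusted p = 0.401), the widest standard errors of any member.

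Ptger3 went with tubular RNA library by library. The thick ascending limb markers Slc12a1 and Umod summed to 82.2 to 1090 CPM over the 11 libraries, with 387 to 1090 CPM in Ajcl baseline and 122 to 426 CPM in ByJcl baseline. Over all 12 libraries the 5 with the most Ptger3 had the same order by these markers, the set-aside library being first in both at 10.7 and 1373 CPM, and so did the 2 with the least. Over the 11 libraries Ptger3 spanned 19.1-fold and the marker sum 13.3-fold, while Ptger3 per 1000 CPM of the markers stayed between 5.38 and 9.84, a 1.83-fold span. That ratio was 7.03 to 7.77 in Ajcl baseline, 7.12 to 7.59 in Ajcl Day 5 ADR, 7.82 to 9.84 in ByJcl baseline and 5.38 to 9.24 in ByJcl Day 5 ADR. The 4 collecting duct markers, which include the water channel genes Aqp2 and Aqp3, spanned 18.1-fold, and the 2 libraries with the least of them were again the 2 with the least Ptger3. These libraries share their depth and preparation, the relation was noticed after the values were seen, and no test was made of it.

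**Figure D3:**
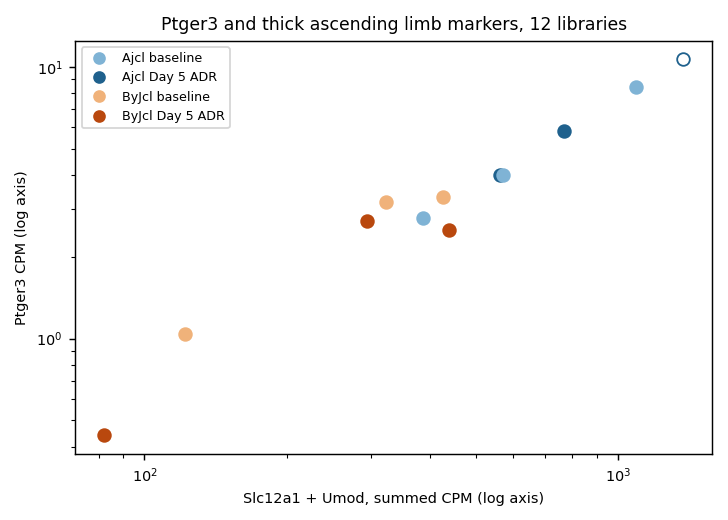
Ptger3 CPM (vertical log axis) against the summed CPM of the thick ascending limb markers Slc12a1 and Umod (horizontal log axis) in 12 libraries, coloured by group, with an open circle for Ajcl Day 5 ADR replicate 1. Points run from 0.443 and 82.2 CPM in ByJcl Day 5 ADR replicate 1 to 10.7 and 1373 CPM in the open circle.

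Counting the 10 members by comparison gives the following. For ByJcl against Ajcl at baseline 1 of 10 members was called, higher (Pla2g5), where 0.159% of all tested genes were called, and the median log2 fold change was 0.24 over the members and 0.01 over all genes. For the same comparison at Day 5, 2 of 10 were called, both higher (Ptgir and Pla2g5), where 0.165% of all genes were called, with medians of 0.19 and 0.00. For ADR in ByJcl 1 of 10 was called, higher (Ptgir), where 10.6% of all genes were called and 5.75% were called higher, with medians of −0.13 and 0.01. For ADR in Ajcl edgeR called 0 of 10, where 0.312% of all genes were called, and DESeq2 also called 0, with 2 members below an unadjusted p of 0.05 (Pla2g5 and Tbxa2r) against 9.8% of all genes. For the difference between the substrains' ADR changes edgeR and DESeq2 each called 0 of 10, and edgeR called 0 of the 17002 genes. There 3 members (Ptgir, Ptgs2 and Pla2g5) had an unadjusted p below 0.05, against 8.02% of all genes.

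**Figure D4:**
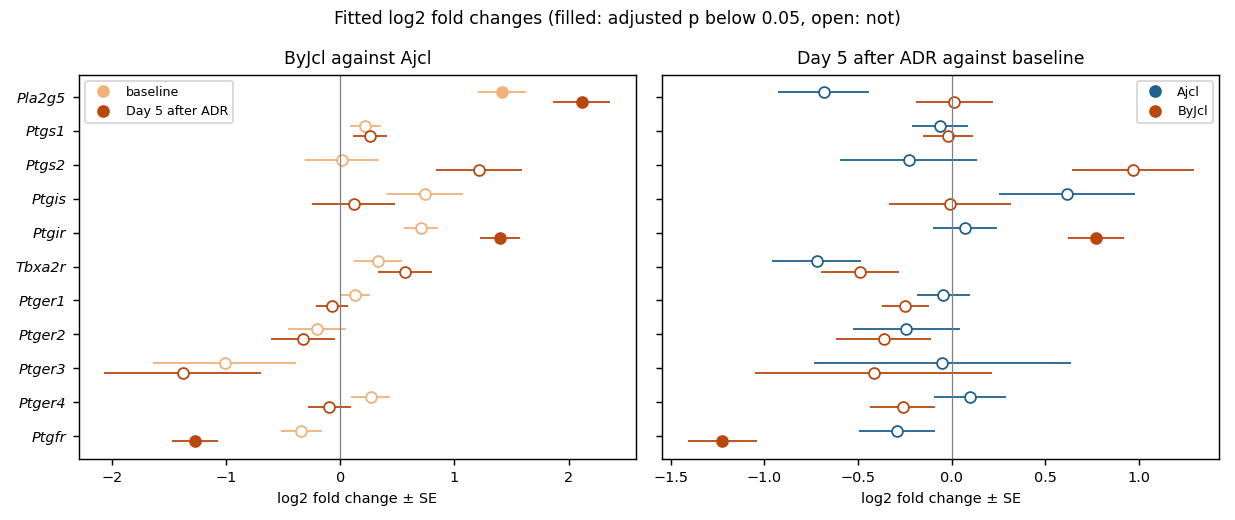
Fitted log2 fold change ± SE (horizontal axes) of the 10 members and of Ptgfr for ByJcl against Ajcl (left, by time) and for Day 5 ADR against baseline (right, by substrain), with filled circles for an adjusted p below 0.05. Filled points are Pla2g5 at 1.42 and 2.12, Ptgir at 1.40 and 0.77, and Ptgfr at −1.27 and −1.22.

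Levels can be compared between genes only per length, as mean CPM per kilobase of annotated exon over the 11 libraries. Tbxa2r at 18.6 ± 5.46, Ptger4 at 16.5 ± 2.59, Ptger1 at 13.8 ± 1.57 and Ptgs1 at 12.6 ± 1.64 formed an upper set whose neighbours do not differ beyond their spread. Ptgir at 3.36 ± 1.56, Ptgis at 3.35 ± 1.10 and Pla2g5 at 1.82 ± 0.969 came next and overlap one another. Ptgs2 at 1.02 ± 0.512, Ptger2 at 0.782 ± 0.184 and Ptger3 at 0.553 ± 0.349 were lowest, also with overlap. These means pool groups that differ, and the place of Pla2g5 depends on the substrain. Pla2g5 was at 2.62 and 2.65 CPM per kilobase in ByJcl at baseline and Day 5, but at 0.981 in Ajcl baseline, near Ptger2 at 0.923, and at 0.611 in Ajcl Day 5 ADR, the lowest mean of the members there. Tbxa2r at 11.6 was below Ptger4 at 16.6 and Ptger1 at 13.4 in Ajcl Day 5 ADR, and Ptgir was above Ptgis in ByJcl Day 5 ADR (5.603 against 3.808) and below it in the other 3 groups. With the longest transcript as length, Ptger4 (29.2) stands above Tbxa2r (24.1), Ptgs1 (17.1) above Ptger1 (15.6) and Ptgis (4.94) above Ptgir (3.38).

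The makeup of the receptor RNA differed between baseline and Day 5 libraries in both substrains. Over the 6 receptor members and Ptgfr, the receptor of PGF2α, the Gs-coupled receptors Ptgir, Ptger2 and Ptger4 took 33.6 ± 2.73% of the per-kilobase total in Ajcl baseline and 41.1 ± 0.509% in Ajcl Day 5 ADR. In ByJcl they took 35.2 ± 1.14% at baseline and 41.2 ± 4.15% at Day 5. The Gq-coupled receptors Ptger1, Tbxa2r and Ptgfr went from 64.9 ± 2.08% to 57.3 ± 0.983% in Ajcl and from 64.2 ± 0.788% to 58.2 ± 4.47% in ByJcl. In both substrains every Day 5 library in the fit had a higher Gs-coupled share than every baseline library of that substrain, as did the set-aside library at 38.5%. The receptors within these shares differed, since Ptgir went from 5.13 ± 0.726% to 10.8 ± 2.18% in ByJcl, and in Ajcl from 3.67 ± 0.287% to 4.46 ± 0.223%, where Ptger4 went from 28.2 ± 2.12% to 35.0 ± 0.431% and Tbxa2r from 34.6 ± 4.32% to 24.5 ± 1.46%. The level of Ptger4 itself differed by 0.10 ± 0.19 on the log2 scale in Ajcl. The shares, which include the uncertain Ptger1, were described and not tested.

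**Figure D5:**
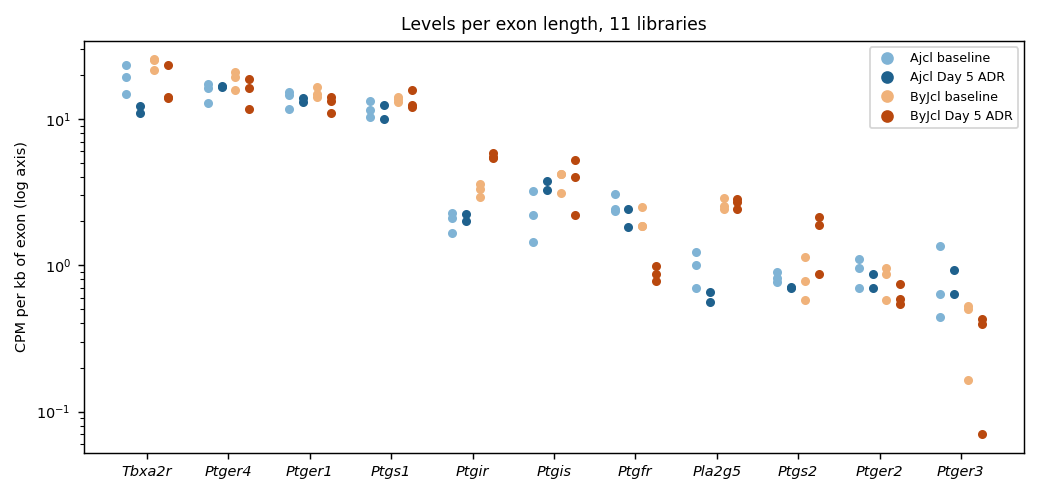
CPM per kilobase of exon (vertical log axis) of the 10 members and Ptgfr in each of the 11 libraries of the fit, coloured by group and ordered by their mean. Tbxa2r, Ptger4, Ptger1 and Ptgs1 have means of 12.6 to 18.6, and the other genes have means of 3.36 or less.

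The wider pathway was read from a list of 28 further genes chosen for their textbook roles, namely other phospholipases A2, terminal synthases, transport and breakdown genes and the remaining receptors. Of these 20 were tested. In ByJcl against Ajcl at Day 5 and in ADR in ByJcl the edgeR call was the same gene, 1 lower of 20, Ptgfr. That is 5% of the list, where 0.165% and 10.6% of all tested genes were called, and DESeq2 called 1 and 3 of the 20. Ptgfr was at 16.8, 12.5 and 12.5 CPM in ByJcl baseline and at 5.31, 6.67 and 5.92 CPM in ByJcl Day 5 ADR, without overlap, as 16.1% of all tested genes were in that direction. Ptgfr fell with ADR in ByJcl by 1.22 ± 0.18 on the log2 scale (edgeR adjusted p = 0.00327). In Ajcl it was at 16.4, 15.8 and 20.7 CPM at baseline and at 16.5 and 12.4 CPM at Day 5, a difference of −0.29 ± 0.20 that was not called (edgeR adjusted p = 0.727). The set-aside library had the highest Ptgfr of the 12, at 23.2 CPM, and with it in the fit the Ajcl difference was −0.04. Ptgfr at Day 5 was lower in ByJcl by −1.27 ± 0.20 (edgeR adjusted p = 0.0433), a call lost with the replicate block, with only the Day 5 groups, and without Ajcl baseline replicate 1 or 2, Ajcl Day 5 ADR replicate 2, ByJcl baseline replicate 2 or 3, or any ByJcl Day 5 library, each left out in turn. Tubular markers stood the same way at Day 5, with collecting duct sums of 58.4 to 71.9 CPM in Ajcl and 9.12 to 33.6 CPM in ByJcl. Thick ascending limb sums were 564 to 768 and 82.2 to 440 CPM in turn. In ByJcl at baseline these sums overlapped those of Day 5, at 12.6 to 78.0 CPM for collecting duct and 122 to 426 CPM for thick ascending limb. ByJcl baseline replicate 1 had 12.6 and 122 CPM of these markers, with Ptgfr at 16.8 CPM. The part of tubular RNA in the Ptgfr difference was not tested. The difference between the substrains' ADR changes in Ptgfr, −0.93 ± 0.27, was not called (edgeR adjusted p = 0.62). Within ByJcl the Gq-coupled Ptgfr was thus called lower and the Gs-coupled Ptgir higher. The other receptors of both couplings were not called there. Their differences were −0.26 (Ptger4) and −0.36 (Ptger2) for Gs, and −0.25 (Ptger1) and −0.49 (Tbxa2r) for Gq.

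For ADR in Ajcl, for ByJcl against Ajcl at baseline and for the difference between ADR changes, edgeR called 0 of the 20 wider genes, with 4, 2 and 3 below an unadjusted p of 0.05, where 9.8%, 8.34% and 8.02% of all tested genes were. DESeq2 called 1, 0 and 0. Slco2a1, the prostaglandin uptake transporter and the most abundant gene of transport and breakdown at 29.9 ± 6.20 CPM per kilobase, was the 1 that DESeq2 called in Ajcl (adjusted p = 0.0256), and DESeq2 called it in ByJcl too (adjusted p = 0.0331). Slco2a1 went from 337 ± 44.3 to 506 ± 95.0 CPM in Ajcl (0.59 ± 0.15, edgeR adjusted p = 0.187) and from 356 ± 25.5 to 468 ± 45.0 CPM in ByJcl (0.40 ± 0.14, edgeR adjusted p = 0.0901). The set-aside library had 243 CPM of Slco2a1, below every other library. Ptges3, a chaperone with PGE2 synthase activity, led the synthases that have an annotated length, which Akr1b3 lacks here, at 71.0 ± 25.2 CPM per kilobase. Pla2g4a, the cytosolic phospholipase A2, led the phospholipases at 9.84 ± 2.34, against 1.82 ± 0.969 for Pla2g5. Neither Ptges3 nor Pla2g4a was called in any comparison.

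A list of 9 genes of the leukotriene and lipoxygenase branch, which uses the same arachidonic acid, had 1 call, Ltc4s in ADR in ByJcl, which is 11.1% of the list where 10.6% of all tested genes were called. Ltc4s, the leukotriene C4 synthase, was at 9.04, 5.84 and 5.41 CPM in ByJcl baseline and 26.3, 29.4 and 12.9 CPM at Day 5, a rise of 1.76 ± 0.39 (edgeR adjusted p = 0.0188). In the other 4 comparisons edgeR called 0 of the 9. For ByJcl against Ajcl at baseline 4 of the 9 were below an unadjusted p of 0.05, where 8.34% of all tested genes were, with a median log2 fold change of 0.69 over the list and 0.01 over all genes. In the other 3 comparisons 0 or 1 of the 9 were below it, where 8.02% to 14% of all tested genes were, and DESeq2 called 1 at Day 5 between substrains and 0 in the rest.

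The genes most like Ptgir and Pla2g5 were found among 13639 tested genes with a mean of at least 1 CPM, by the root-mean-square difference of centred log2(CPM + 1) over the 11 libraries. Closest to Ptgir were Zfp809 (0.135), Ppp1r14a (0.182) and Sdcbp2 (0.192). Zfp809, a zinc finger gene, had group means of 20.8 and 22.2 CPM in Ajcl and 35.8 and 54.3 CPM in ByJcl, at baseline and Day 5 in turn. Closest to Pla2g5 were Glo1 (0.326), Serpina1a (0.362) and Ctps2 (0.363), all farther from it than the 3 were from Ptgir. Glo1, the glyoxalase I gene, had group means of 82.9 and 66.5 CPM in Ajcl and 170.3 and 134.3 CPM in ByJcl. Serpina1a belongs to a family of near-identical copies, between which the counting could split reads.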

How the data were processed

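RNA-seq of glomerulus-enriched preparations was available for 12 libraries in 4 groups, assigned from the labels. Per the labels, the authors used FastQC, Trimmomatic, STAR and featureCounts on GRCm39. The deposited values are whole-number read counts per gene symbol, not normalized and not pooled. Libraries were strand-specific and read from both ends. The annotation and the strand and paired-end settings of the counting are not given in the sources used here. In each library 77.1% to 82.9% of counts from 1 to 49 were even, so mates of a pair may have been counted separately, and a fit on counts divided by 2 was tried.

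Counts were fitted as deposited in edgeR 4.0.16 (R 4.3.3) with TMM scaling and filterByExpr (minimum count 10), which kept 17002 genes, in 11 libraries. The design had a mean for each group, which left 7 residual df, with 4.1 prior df and a common dispersion of 0.0521. SE is the log2 fold change divided by the square root of F. With 3 counts as a floor, a library could show 0.0549 to 0.0711 CPM, for counting error only. Alternatives were 12 libraries, DESeq2 1.42.0, RLE size factors, 2 other filters, halved counts, a replicate block, only the groups compared and leaving out each library. Within each group no libraries were copies of each other (chi-square per degree of freedom 44.6 to 271), and pairs across groups were not compared in this way. The fit was tested on simulated data, in which 64% of genes changed 1 log2 unit and 91% of those changed 2 were recovered for ADR in ByJcl, among 16597 genes.

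The members and lists were chosen with earlier results of these data known. Named genes are all members, the wider and leukotriene genes called in any comparison, the most abundant wider gene of each role per kilobase, and the 3 genes most like Ptgir and Pla2g5. Marker lists covered podocytes, endothelium, mesangium, smooth muscle, juxtaglomerular cells, tubule segments, macula densa, macrophages, platelets, fibroblasts and immediate early genes. Positions, lengths and overlaps came from GENCODE vM39 on GRCm39, and 1 overlap is not reported here. Figures were made with matplotlib 3.10.9.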

Additional observations from a re-analysis of the deposited data

Results flagged for a closer look

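Results were looked at again where the library outside the fit, Ajcl Day 5 ADR replicate 1, carried a signal above its controls. Ptgis was at 15.1 CPM there, above the highest Ajcl baseline library at 11.57 CPM. Both Ajcl Day 5 libraries of the fit were also above it, at 11.68 and 13.46 CPM. Ptger3 was at 10.66 CPM there, above the highest Ajcl baseline library at 8.472 CPM. The same library had the highest thick ascending limb marker sum of the 12, at 1373 CPM. The part of that tubular RNA in either level was not tested.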

How the results depend on the processing

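No called log2 fold change of a member changed sign under any alternative. For the 10 members in ByJcl against Ajcl at baseline, the count of 1 became 0 with all 12 libraries, 0 with the replicate block and 0 with only the groups compared, and 2 with DESeq2, and it ran from 0 to 1 when libraries were left out. At Day 5 the count of 2 became 0 with only the groups compared and 3 with DESeq2, which added Ptgs2, and it ran from 0 to 2 when libraries were left out. For ADR in ByJcl the count of 1 became 2 with DESeq2 and ran from 1 to 3 when libraries were left out. For the wider list the counts of ADR in Ajcl (0 to 1) and in ByJcl (1 to 3) changed with DESeq2, the replicate block gave 2 in ByJcl and 0 at Day 5, only the groups compared gave 0 at Day 5, and leaving out libraries gave 1 to 2 in ByJcl and 0 to 2 at Day 5. The cause was not tested. Libraries sharing a number did not deviate together (r from −0.238 to 0.374 over 15 pairs, 5 of 11 libraries closest to their own number), and the block changed the calls of no member except Pla2g5 at baseline (1.43, adjusted p = 0.0538). The 2 fits with replicate 1 in place of another Ajcl Day 5 library were chosen after seeing the data. In simulated data of this size and depth, 17% of 1-unit interaction changes were recovered.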
